A study of Homo sapiens with 8 samples.

Results

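The 46 genes described here are interferon-stimulated genes and antigen presentation genes: 24 antiviral effectors, 2 chemokines, 3 viral RNA sensors, 4 signaling genes, 6 MHC class I genes and 7 antigen processing genes, out of 38637 genes in the deposited table. The members were given by name, and each was found once. They were measured by poly(A) RNA-seq in 8 libraries of SW1990, an established human pancreatic adenocarcinoma cell line, with 2 libraries in each of 4 groups. The groups were cells with an empty vector (Vector), cells overexpressing the transcription factor EBF2 (EBF2-OE), cells given vehicle (Vehicle) and cells given GSK-LSD1, an inhibitor of the histone demethylase KDM1A (LSD1), at 2000 µM according to the sample titles, a dose whose unit could not be checked from the files. The study's legend to a Western blot of SW1990 cells gives lower doses of GSK-LSD1. The sources used here state no time point for these libraries, no number of clones and no vehicle. The labels name the line as SW1990, and the study's legend to its RNA-seq names SW1990 cells that carry luciferase. Library numbers, taken from the titles, run from 2 to 3 for Vector and for EBF2-OE, and from 1 to 2 for Vehicle and for GSK-LSD1. Nothing says that the libraries came from separate cultures, so p-values measure the spread between these libraries, which may be technical.

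Interferons are secreted proteins that bind receptors on the cell surface and activate the JAK kinases. Type I interferons signal through a complex that holds STAT2 and IRF9 and binds the interferon-stimulated response element (ISRE) in the promoters of its target genes. Interferon gamma acts on promoters that hold the gamma-activated site (GAS), and the transcription factor IRF1 passes this signal on. The products of the target genes block viral entry, translation and replication, sense viral RNA, and present peptides to cytotoxic T cells on MHC class I molecules. In MHC class I presentation, proteasomes cut proteins into peptides, the TAP1 and TAP2 transporter moves these into the endoplasmic reticulum, TAPBP (tapasin) helps load them, and B2M forms the light chain of the presenting molecule.

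To see which members carry the letters of an ISRE, promoter windows from RefSeq (GRCh38.p14, 250 bases before and 50 after each start site) were searched on both strands for the letters GAAANNGAAA, and for the GAS letters TTCNNNGAA, which read the same on both strands. Windows were found for 38 members under their own symbol or, for DDX58, under its newer symbol. The table holds none for IFIT2, OAS2, OASL, IFITM2, IRF7, GBP2, HLA-E and NLRC5. The ISRE letters occurred in 25 of the 38 windows, against 996 of all 27305 windows (3.65%). By role, they occurred in 15 of 19 windows of antiviral effectors, 5 of 7 of antigen processing genes, 2 of 4 of MHC class I genes, 2 of 3 of RNA sensors and 0 of 3 of signaling genes. The GAS letters occurred in 9 of the 38 windows, against 7.88% of all windows, and overlap an ISRE match in some of them. A match describes the letters and is not evidence of binding in these cells. The stretches below come from members whose levels are described later, with the matching letters in capitals, written 5′ to 3′ on the strand of the gene.
IFIT1 ISRE (chr10:89392499-89392524, plus strand, 106 bases between the match and the start site): agctttagTTTCACTTTCccctttcg
IFI6 ISRE (chr1:27672331-27672356, minus strand): agagagggGAAAATGAAActctgcag
IFITM1 ISRE (chr11:313992-314017, plus strand): aacagcagGAAATAGAAActtaagag
ISG20 ISRE (chr15:88638939-88638964, plus strand): acaaactaGAAACTGAAAcagggtcg
BST2 ISRE (chr19:17405743-17405768, minus strand): ctttctggGAAACTGAAActgaaaac
B2M ISRE (chr15:44711371-44711396, plus strand): aagaaaagGAAACTGAAAacgggaaa
ISG15 ISRE (chr1:1013382-1013407, plus strand): gggaaaggGAAACCGAAActgaagcc
TAP1 ISRE (chr6:32853821-32853846, minus strand): gcggccgcTTTCGATTTCgctttccc
TAPBP ISRE (chr6:33314081-33314106, minus strand): ctttggagGAAAGTGAAAgtgaaagg
IFI35 GAS (chr17:43006754-43006778, plus strand): gcagggatTTCACGGAAatgaaagt
IRF1 GAS (chr5:132490881-132490905, minus strand): agcctgatTTCCCCGAAatgacggc
The 10 core letters of the ISRE match were the same in ISG20, BST2 and B2M (GAAACTGAAA), and IFI6 carried GAAAATGAAA in more than 1 place. The IFI35 window held the GAS letters and not the ISRE letters.

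The libraries held 20453362 to 27054876 counts, and the members took 0.240% to 0.313% of them. EBF2 had 28 counts in each Vector library and 5818 and 90100 counts in EBF2-OE 2 and 3, in the direction of the labels, and the EBF2-OE libraries differed widely in the overexpressed gene. KDM1A had 3932 to 6580 counts in all libraries. Of the epithelial markers, KRT7, KRT8, KRT18 and MUC1 were high, while KRT19, EPCAM and CDH1 had medians of 0.0862, 0.370 and 0.702 TPM (a level corrected for gene length and scaled to the same total in every library). CD3E, PRSS1, CELA3A, INS and GCG, which mark T cells, acinar cells and islet cells, were at 0 in all 8 libraries.

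The members covered a wide range of levels. On the TPM scale, 23 members had a mean of at least 10, 11 lay between 1 and 10, and 12 lay under 1. The most abundant effector was IFITM3, an endosomal protein that blocks viral entry, with 1426 and 1510.1 TPM in Vector 2 and 3, 1459 and 1483 in EBF2-OE 2 and 3, 1449 and 1451 in Vehicle 1 and 2, and 1622 and 1656 in GSK-LSD1 1 and 2. Its level was high in all libraries, and the highest values were those of the GSK-LSD1 libraries. Among MHC class I genes, the light chain B2M led with 423 and 485 TPM in Vector, 432 and 469 in EBF2-OE, 408 and 434 in Vehicle, and 555 and 559 in GSK-LSD1. TAPBP, the peptide-loading factor, led the antigen processing genes with 109 and 108 TPM in Vector, 109 and 125 in EBF2-OE, 132 and 129 in Vehicle and 140.0 and 158 in GSK-LSD1. IRF7, the transcription factor that amplifies type I interferon production, led the signaling genes with 79.8 and 47.0 TPM in Vector, 43.3 and 72.4 in EBF2-OE, 94.1 and 96.4 in Vehicle, and 79.4 and 87.5 in GSK-LSD1. Its Vector and EBF2-OE libraries overlapped, and the Vehicle libraries lay highest. The RNA sensors were scarce: the highest, IFIH1 (MDA5), lay between 0.544 and 1.56 TPM over the 8 libraries.

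Several classical interferon targets were close to absent. CXCL10, a chemokine that attracts T cells, had at most 2 counts in a library and none in 4 of 8 libraries, and CXCL11 had at most 4 counts. RSAD2 (viperin) had 0 to 4 counts, GBP1 0 to 4, IFI44L 0 to 7, XAF1 0 to 8 and HLA-F 2 to 10. GBP1 was at 0 in both EBF2-OE libraries, which allows up to 3 counts in each. These 7 members were left out of the tests reported here by the filter on low counts. The interferon genes themselves were near 0 too: of 21 listed, 16 had no count in any library, and the highest count of any in a library was 4 (IFNE). The receptor chains IFNAR1 and IFNAR2, in contrast, had 13.8 to 21.1 and 8.92 to 12.6 TPM, and IFNGR1 and IFNGR2 had 14.6 to 18.9 and 17.5 to 29.4 TPM.

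**Figure D1:**
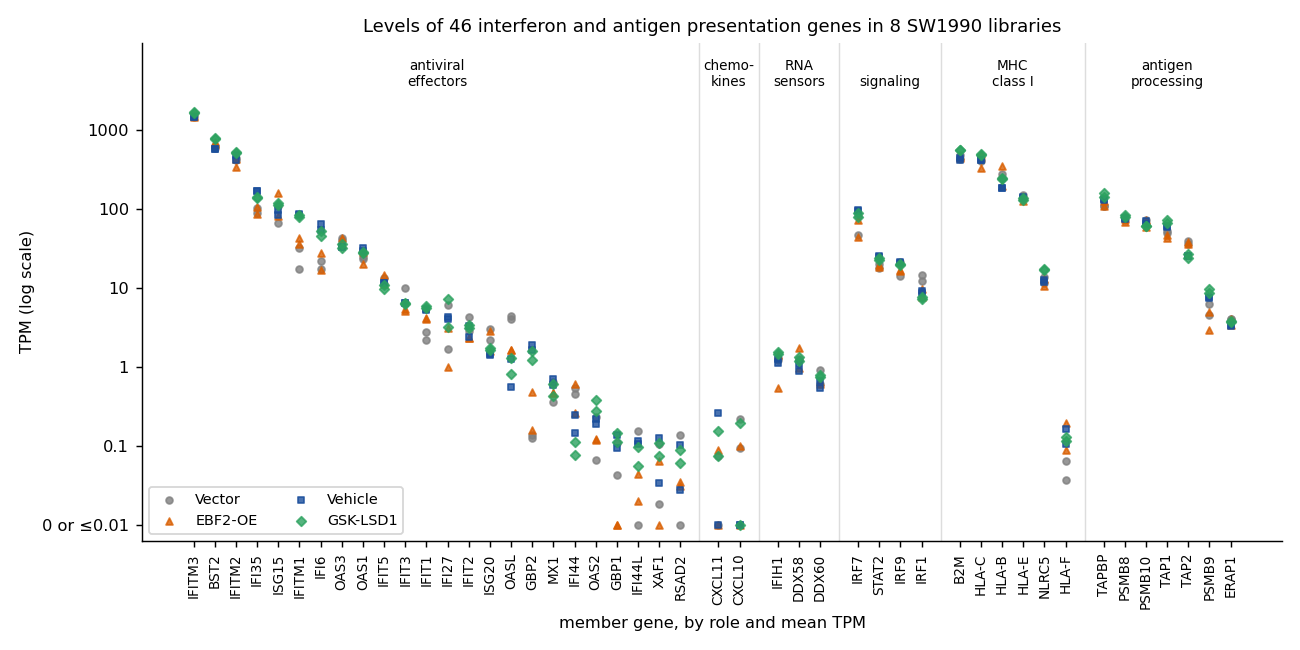
The plot of levels shows the TPM (log axis) of the 46 members in 8 libraries, ordered by role and mean, with 1 point per library and values at or under 0.01 drawn at 0.01. IFITM3, BST2 and B2M lie at the top, the chemokines and HLA-F near the floor, and GBP2, OASL, IFITM1 and IFI6 show wide gaps between some groups.

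EBF2 overexpression was compared with the empty vector to ask which members follow EBF2. Of the 46 members, 37 had enough counts to be tested, and 0 met both limits of a call, which are a fold change over 1.5 and an adjusted p-value of less than 0.05 (edgeR's quasi-likelihood test, Benjamini-Hochberg over 15560 genes). Over all genes, 0% were called higher and 0% lower, and the smallest adjusted p-value of a member was 0.9998. EBF2 itself had a log2 fold change of 10.75, with unadjusted p = 0.00042 and adjusted p = 0.9998 by edgeR. The test thus did not call the overexpressed gene either, and the absence of a call does not show that a member was unchanged. DESeq2 called 0 members as well. At an unadjusted p-value under 0.05, 1 member was higher (0.733% of all genes) and 2 were lower (0.219% of all genes). Both libraries lay above both controls for 4 members (12.1% of all genes) and below them for 5 (10.8%). The median log2 fold change of the tested members was -0.06, against 0.00348 over all genes. Fewer expressing cells and less RNA per cell cannot be told apart in such bulk libraries.

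OASL, a relative of the oligoadenylate synthetases that boosts RIG-I signaling, had the lowest fold change in EBF2-OE cells. It was at 3.58 and 3.36 CPM (counts scaled to a common library size after normalization, not corrected for length) in Vector 2 and 3 and at 1.37 and 1.38 CPM in EBF2-OE 2 and 3. The groups did not overlap, with a log2 fold change of -1.33 (SE 0.323, 95% interval -2.12 to -0.54), unadjusted p = 0.0061 and adjusted p = 0.9998 by edgeR. IRF1 was at 22.8 and 19.7 CPM in Vector and at 12.2 and 15.6 CPM in EBF2-OE, again without overlap (log2 fold change -0.61, SE 0.195, adjusted p = 0.9998).

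IFIT1, which binds viral RNA that lacks the host cap methylation, lay on the other side. It was at 3.67 and 4.91 CPM in Vector and at 7.06 and 7.40 CPM in EBF2-OE (log2 fold change 0.75, SE 0.257, adjusted p = 0.9998 by edgeR). Its neighbours on chromosome 10 differed in sign. IFIT5 had a log2 fold change of 0.10, IFIT2 had -0.57, and IFIT3 was at 6.16 and 9.95 CPM in Vector and 5.34 and 5.04 CPM in EBF2-OE (log2 fold change -0.64). IFITM1, which blocks viral entry at the cell surface, was at 7.81 and 4.33 CPM in Vector and 10.9 and 9.01 CPM in EBF2-OE (log2 fold change 0.72). None of these passed the test after adjustment.

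The MHC class I genes lay near 0 in this comparison, and their intervals show what the 4 libraries could resolve. B2M had a log2 fold change of 0.02 (95% interval -0.31 to 0.34) and HLA-E of -0.06 (-0.36 to 0.25). The intervals of the heavy chains HLA-B (-0.59 to 0.76) and HLA-C (-0.47 to 0.57) were wider, and their EBF2-OE libraries differed from each other. HLA-B was at 111 CPM in EBF2-OE 2 and 203 CPM in EBF2-OE 3, on either side of the Vector libraries at 137 and 158 CPM. HLA-C was at 190.0 and 294 CPM in EBF2-OE 2 and 3, around 224 and 242 CPM in Vector.

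This spread within a group was itself uneven over the members. Among the 23 members with a mean of at least 10 TPM, 5 differed by more than 1.5-fold between the EBF2-OE libraries (8.37% of 8732 genes at such levels did) and 3 between the Vector libraries (7.15%), but 0 between the Vehicle libraries (1.29%) or the GSK-LSD1 libraries (0.756%). EBF2-OE 3, the library with more EBF2, was the higher one for all 5: ISG15 by 1.99-fold, HLA-B by 1.80-fold, IRF7 by 1.68-fold, IFI6 by 1.65-fold and HLA-C by 1.53-fold. In the Vector group, library 3 was the lower one for IFITM1 (by 1.78-fold), IRF7 (by 1.62-fold) and ISG15 (by 1.54-fold). Over all abundant members, the median fold between the libraries was 1.22 in EBF2-OE, 1.12 in Vector, 1.03 in Vehicle and 1.05 in GSK-LSD1. Whether the amount of EBF2 has a part in these gaps was not tested.

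**Figure D2:**
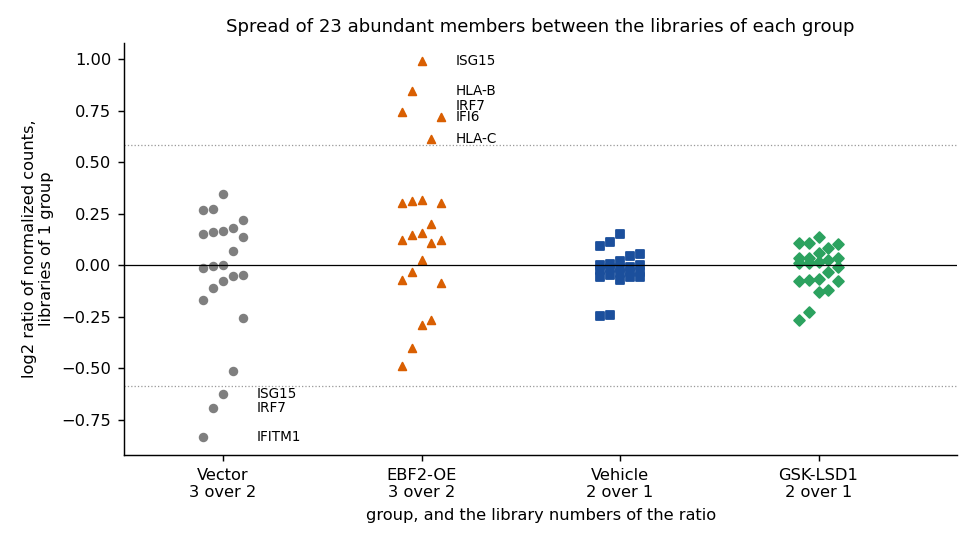
The plot of replicate spread shows, for 23 abundant members, the log2 ratio of normalized counts between the libraries of each group, with dotted lines at a 1.5-fold ratio. ISG15, HLA-B, IRF7, IFI6 and HLA-C stand above the line in EBF2-OE, IFITM1, IRF7 and ISG15 stand below it in Vector, and no member crosses it in Vehicle or GSK-LSD1.

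GSK-LSD1 was compared with vehicle to ask which members follow inhibition of KDM1A. Several MHC class I genes (NLRC5, B2M, HLA-B and HLA-C), the loading genes TAP1 and TAPBP, and the effectors BST2, ISG15, IFITM2 and IFITM3 were higher, each by less than 1.5-fold. Of the 46 members, 38 were tested and 0 were called at the fold limit of 1.5, where 2.53% of all 16059 genes were called higher and 2.04% lower. DESeq2 and an unadjusted p-value at the same fold limit gave 0 members too. With no fold limit, 10 members had an adjusted p-value under 0.05 and were higher (9.86% of all genes) and 1 was lower (8.87% of all genes), by edgeR. They were NLRC5, BST2, B2M, HLA-B, ISG15, HLA-C, TAP1, IFITM2, TAPBP and IFITM3, and the lower one was IFI35. The libraries of GSK-LSD1 lay above both Vehicle libraries for 20 of the 38 members (30% of all genes) and below them for 8 (30.2%). The median log2 fold change of the members was 0.21, against -0.00590 over all genes.

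The 11 members passed with the spread estimated from their own 4 libraries. In 1 fit over all 8 libraries, where the wider spread of Vector and EBF2-OE enters, 0 of the 11 passed, with adjusted p-values from 0.060 to 0.649, and all 11 kept their direction. Without GSK-LSD1 2, 6 of the 11 passed (IFITM3, BST2, HLA-B, HLA-C, B2M and NLRC5), and without GSK-LSD1 1, 8 did.

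Among the MHC class I genes, NLRC5, the transactivator of MHC class I promoters, had the largest fold change. It was at 41.2 and 42.6 CPM in Vehicle 1 and 2 and at 58.7 and 60.2 CPM in GSK-LSD1 1 and 2, a log2 fold change of 0.50 (SE 0.0628, adjusted p = 0.000440 by edgeR). B2M was at 452 and 471 CPM in Vehicle and 631 and 618 CPM in GSK-LSD1 (log2 fold change 0.44, SE 0.0448, adjusted p = 0.00013). The libraries of each group lay close together and the groups did not overlap for either gene. HLA-B was at 109 and 108 CPM in Vehicle and 146 and 148 CPM in GSK-LSD1 (log2 fold change 0.44, SE 0.0483, adjusted p = 0.000205). HLA-C was at 249 and 240 CPM in Vehicle and 294 and 299 CPM in GSK-LSD1 (log2 fold change 0.28, adjusted p = 0.00303). The nonclassical HLA-E, a ligand of natural killer cell receptors, was at 158 and 157 CPM in Vehicle and 154 and 158 CPM in GSK-LSD1. Its groups overlapped, with a log2 fold change of -0.02 (95% interval -0.13 to 0.09). Summed over the 6 MHC class I genes, the level was 1155 and 1180 TPM in Vehicle and 1418 and 1460 TPM in GSK-LSD1, against 1224 and 1322 TPM in Vector and 1087 and 1466 TPM in EBF2-OE. Reads of the closely similar HLA genes were counted on the reference genome, so the split between them is uncertain.

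Of the 7 antigen processing genes, 2 passed without a fold limit. TAP1 was at 66.1 and 64.1 CPM in Vehicle and 75.4 and 80.1 CPM in GSK-LSD1 (log2 fold change 0.26, adjusted p = 0.0142 by edgeR). TAPBP was at 204 and 195 CPM in Vehicle and 222 and 245 CPM in GSK-LSD1 (log2 fold change 0.23, adjusted p = 0.0204). Both groups were apart, with a gap between the GSK-LSD1 libraries. TAP2, the partner of TAP1 in the transporter, had a log2 fold change of 0.06 (adjusted p = 0.596), and the immunoproteasome subunits PSMB8, PSMB9 and PSMB10 had 0.15, 0.28 and -0.11, none past the test. ERAP1, the aminopeptidase that trims peptides, had 0.21 (adjusted p = 0.175). ERAP1 overlaps CAST on the opposite strand, which had 54076 counts in all against 2805 for ERAP1, and no strand setting is stated for the counting. TAP1 and PSMB8 overlap the antisense gene PSMB8-AS1, which had 1110 counts in all against 11427 for TAP1.

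Among the antiviral effectors, BST2 (tetherin), which holds budding viruses at the cell surface, was at 222 and 216 CPM in Vehicle and 301 and 304 CPM in GSK-LSD1 (log2 fold change 0.47, SE 0.0477, adjusted p = 0.000128 by edgeR). ISG15, a ubiquitin-like modifier, was at 23.9 and 20.3 CPM in Vehicle and 28.7 and 29.1 CPM in GSK-LSD1 (log2 fold change 0.39, adjusted p = 0.0170). IFITM2 and IFITM3, close relatives in 1 cluster on chromosome 11, had log2 fold changes of 0.23 (adjusted p = 0.0224) and 0.21 (adjusted p = 0.00939), while IFITM1, which lies between them, had -0.04 (adjusted p = 0.826). Reads shared between these near-identical genes make their split uncertain. IFI35 was at 91.2 and 90.6 CPM in Vehicle and 79.8 and 75.6 CPM in GSK-LSD1 (log2 fold change -0.23, SE 0.0563, adjusted p = 0.0185), the only member lower with an adjusted p-value under 0.05. OAS2, a synthetase that activates RNase L, had the largest fold change of all members at 0.567 and 0.476 CPM in Vehicle and 1.01 and 0.710 CPM in GSK-LSD1 (log2 fold change 0.72, SE 0.400, adjusted p = 0.245), from at most 23 counts a library. OAS1 and OAS3 had log2 fold changes of -0.10 and 0.07. IFIT1, IFIT2, IFIT3 and IFIT5 had 0.15, 0.22, -0.01 and -0.13, and none of the 4 passed the test.

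The signaling genes lay on the other side of 0. All 4 had lower values in both GSK-LSD1 libraries than in both Vehicle libraries: IRF1 (log2 fold change -0.23, adjusted p = 0.135), IRF7 (-0.16, adjusted p = 0.096), STAT2 (-0.08, adjusted p = 0.448) and IRF9 (-0.06, adjusted p = 0.734). In this comparison 30.2% of all genes lay below both Vehicle libraries. The gap was small for IRF9, at 14.21 and 14.25 CPM in Vehicle and 14.01 and 13.31 CPM in GSK-LSD1. None of the 4 signaling genes passed the edgeR test. The 3 viral RNA sensors all had higher values, with log2 fold changes of 0.37 for DDX58 (RIG-I), 0.37 for IFIH1 and 0.39 for DDX60, at 1.54 to 3.1 CPM, and none passed either (smallest adjusted p = 0.210).

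**Figure D3:**
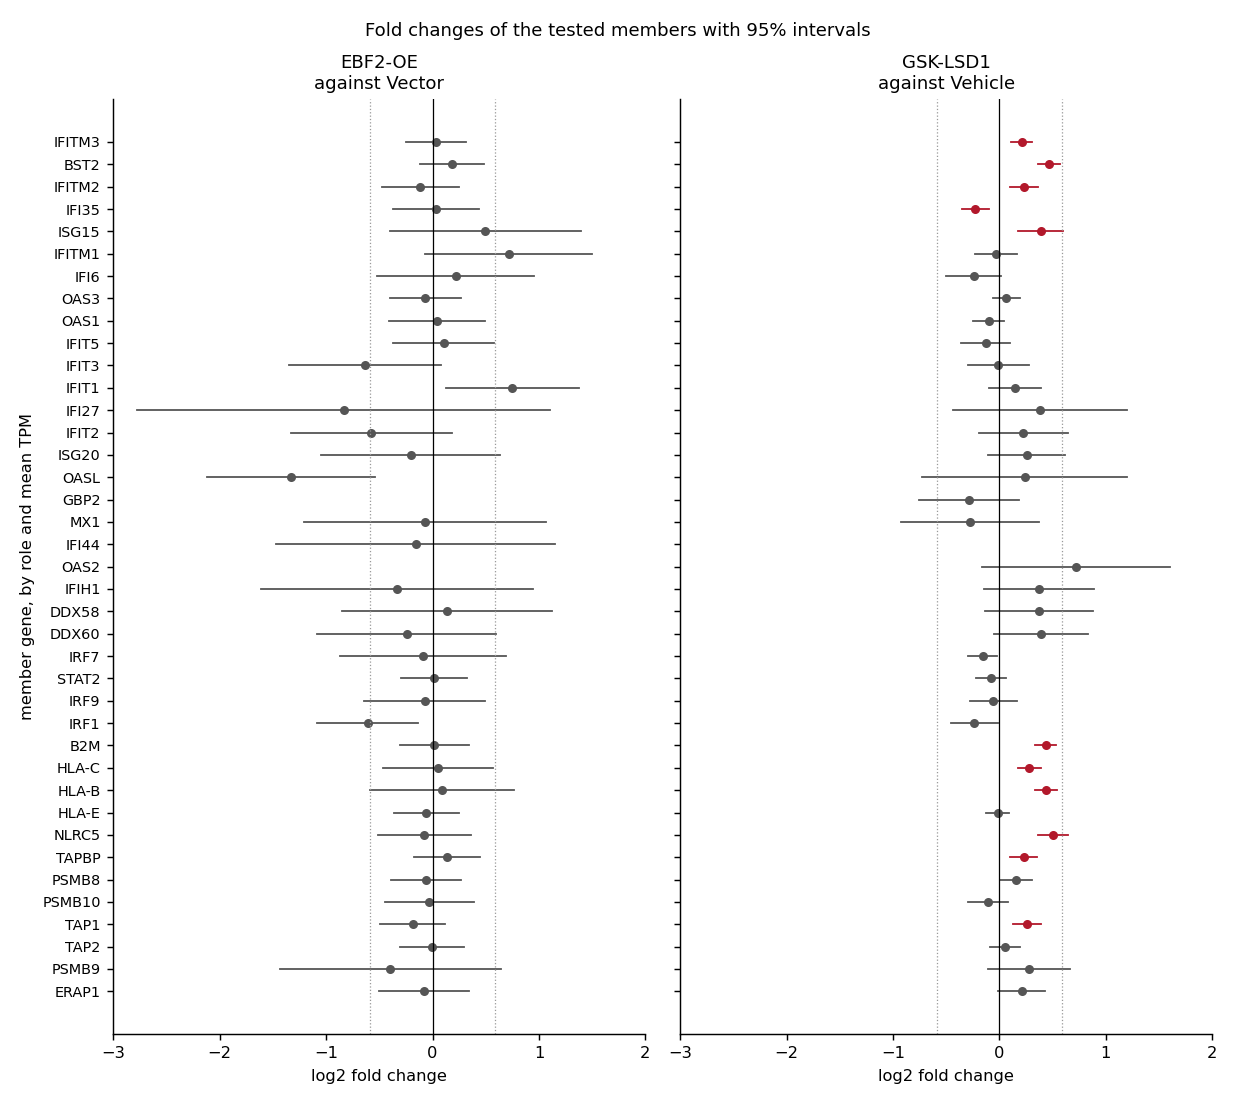
The plot of fold changes shows the log2 fold change and 95% interval of each tested member in EBF2-OE against Vector (left) and GSK-LSD1 against Vehicle (right), with dotted lines at 1.5-fold. The 11 members in red had an adjusted p-value under 0.05, all in GSK-LSD1. Their estimates lie inside the dotted lines, while the intervals of NLRC5 and ISG15 reach past the upper line. The intervals on the left are wider.

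**Figure D4:**
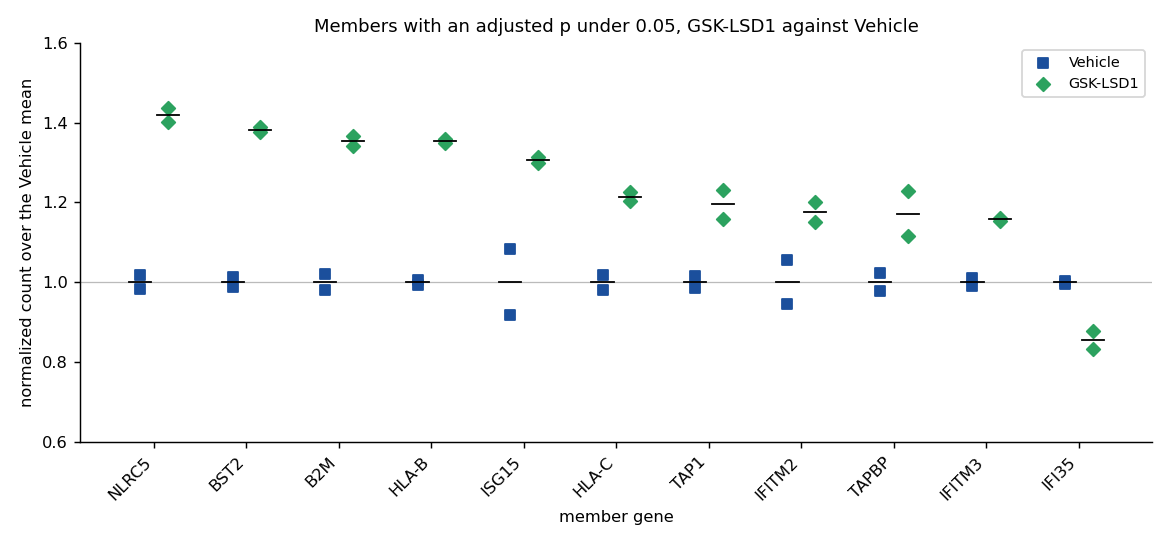
The plot of 11 members shows normalized counts in each Vehicle and GSK-LSD1 library over the Vehicle mean, with bars at the group means and an axis that starts at 0.6. The GSK-LSD1 means run from 1.42 times the Vehicle mean for NLRC5 to 0.855 for IFI35.

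Of the leukocyte markers, CD3E was at 0 in all 8 libraries, PTPRC, the pan-leukocyte marker, reached at most 0.122 TPM, and the macrophage marker CD68 lay between 10.9 and 13.3 TPM in Vehicle and between 16.7 and 18.1 TPM in GSK-LSD1. The fibroblast list summed to 54.8 to 55.8 TPM in Vehicle and 59.9 to 62.4 TPM in GSK-LSD1. The endothelial list (PECAM1, CDH5 and VWF) summed to 4.88 to 5.02 TPM in Vehicle and 2.63 to 2.79 TPM in GSK-LSD1. The epithelial list summed to 7119 to 7231 TPM in Vehicle and 5317 to 5360 TPM in GSK-LSD1. The part of these shifts in the values of the members was not tested.

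Whether a member responded differently to GSK-LSD1 than to EBF2 was tested as the difference of the 2 log2 fold changes over all 8 libraries. It was called for 0 of 39 members tested, where 0% of 16558 genes were called in either direction, and DESeq2 called 0 members. With the fold limit and p-values left unadjusted, 335 of all 16558 genes passed higher and 383 lower. Among them were 3 members (OASL and NLRC5 higher, IFIT1 lower). The smallest p-value of a member belonged to TAP1. It was at 66.1 and 64.1 CPM in Vehicle against 75.4 and 80.1 CPM in GSK-LSD1. In the other comparison it was at 55.2 and 53.9 CPM in Vector against 45.2 and 50.7 CPM in EBF2-OE. The difference was 0.45 on the log2 scale (SE 0.131, adjusted p = 0.439 by edgeR). B2M had a difference of 0.43 (adjusted p = 0.521) and NLRC5 of 0.59 (adjusted p = 0.527). In both comparisons IFIT1, BST2 and TAPBP had all treated libraries above all controls, and IRF1 had them below. For scale, both treated libraries lay above both controls for 12.1% of all genes with EBF2-OE and 30% with GSK-LSD1. They lay below both controls for 10.8% and 30.2%. Whether these members lie apart in both comparisons more often than other genes do was not tested.

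More genes over all were called between the controls Vector and Vehicle (927 higher, 1631 lower) than with GSK-LSD1 (406, 328) or EBF2-OE (0, 0). More members were called between these control groups too. These groups differ in the vector and the vehicle and possibly in when they were prepared, which cannot be told apart, and they share their libraries with the comparisons above. Of 39 members tested by edgeR, 5 were called lower in Vector (10.2% of all 16019 genes) and 2 higher (5.79% of all genes). All 7 were antiviral effectors. With no fold limit, 8 passed lower (13.2% of all genes) and 6 higher (13.6%). Without Vehicle 1, 0 of the 7 calls held, and without Vehicle 2 only IFI6 did. Without Vector 2, 13 members were called. The fold changes of the 7 kept their direction without any 1 library.

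GBP2, a guanylate-binding GTPase induced by interferon gamma, showed the largest gap. It had 64 and 80 counts in Vehicle 1 and 2 and 46 and 57 in GSK-LSD1 1 and 2, but 4 and 5 in Vector 2 and 3 and 5 and 17 in EBF2-OE 2 and 3. Its log2 fold change was -3.73 (SE 0.348, adjusted p = 0.00714 by edgeR), or 13.2-fold lower in Vector. GBP2 (chr1:89106132-89126114) overlaps a long noncoding RNA on the opposite strand, which had 33 counts in all libraries. All 4 libraries of the vector arm lay under all 4 of the vehicle arm.

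IFITM1 (chr11:314040-315272) was at 21.4 and 21.5 CPM in Vehicle and 7.92 and 4.40 CPM in Vector (log2 fold change -1.81, SE 0.275, adjusted p = 0.0129 by edgeR). Its neighbours had log2 fold changes of -0.09 (IFITM2, chr11:307816-309395) and -0.00017 (IFITM3, chr11:319676-320860), so that 1 gene of the cluster was called. IFI6, a mitochondrial protein that limits apoptosis, was at 23.4 and 19.8 CPM in Vehicle and 7.68 and 6.36 CPM in Vector (log2 fold change -1.62, SE 0.168, adjusted p = 0.00789). IFIT1 was at 9.29 and 9.49 CPM in Vehicle and 3.72 and 4.99 CPM in Vector (log2 fold change -1.10, SE 0.202, adjusted p = 0.0181), and its neighbours IFIT2, IFIT3 and IFIT5 had 0.29, 0.34 and 0.07. IFI35 was at 90.7 and 89.98 CPM in Vehicle and 46.4 and 55.4 CPM in Vector (log2 fold change -0.83, SE 0.110, adjusted p = 0.0107). In all 4 genes the Vector libraries lay below the Vehicle libraries without overlap.

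OASL and ISG20 were called in the other direction. OASL was at 0.483 and 1.05 CPM in Vehicle and 3.62 and 3.41 CPM in Vector (log2 fold change 2.17, SE 0.387, adjusted p = 0.0171 by edgeR). ISG20, an RNA exonuclease, was at 3.54 and 3.53 CPM in Vehicle and 7.15 and 5.33 CPM in Vector (log2 fold change 0.82, SE 0.223, adjusted p = 0.0469). ISG20 was not past the threshold with DESeq2. IFI44 lay at 0.563 and 0.327 CPM in Vehicle and 1.00 and 1.24 CPM in Vector (log2 fold change 1.34, adjusted p = 0.0621) and was not called. Of the MHC class I and antigen processing genes, HLA-B (log2 fold change 0.48), TAP2 (0.56) and TAPBP (-0.28) passed without a fold limit, as did OAS1 (-0.38), OAS3 (0.33), STAT2 (-0.40) and IRF1 (0.57), while B2M (0.09) and HLA-C (-0.04) did not. The endothelial list (PECAM1, CDH5 and VWF) summed to 4.88 to 5.02 TPM in Vehicle and 0.717 to 0.798 TPM in Vector, with PECAM1 at no more than 0.228 TPM in any library. The epithelial list summed to 4622 to 4952 TPM in Vector, below its Vehicle range, and CD68 lay between 22.0 and 25.8 TPM in Vector, above its Vehicle range. The part of these markers in the values of the members was not tested.

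**Figure D5:**
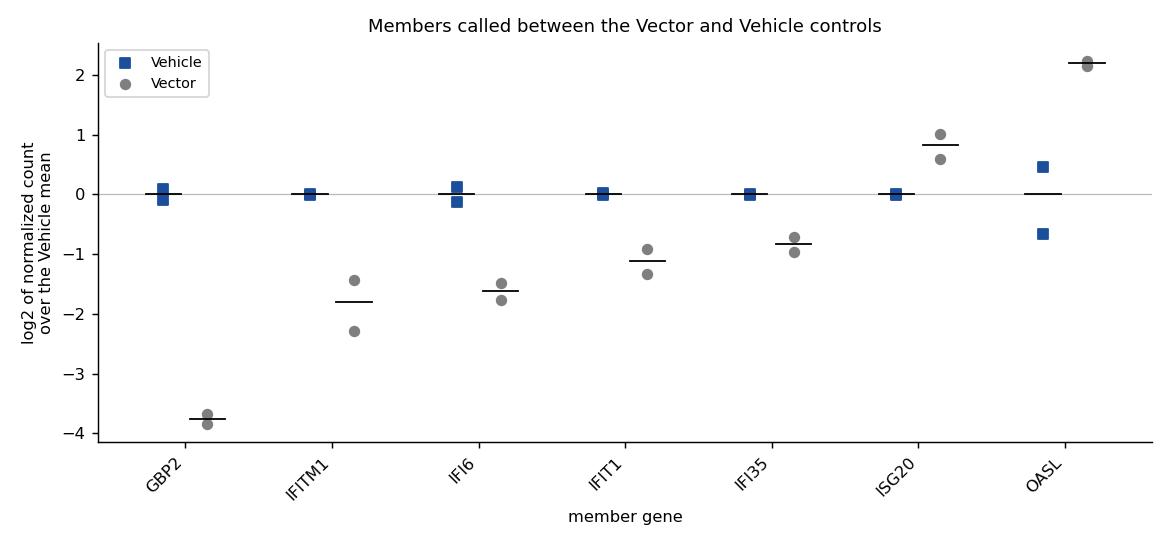
The plot of control groups shows the log2 of normalized counts in each Vehicle and Vector library over the Vehicle mean for the 7 called members, with bars at the group means. GBP2, IFITM1, IFI6, IFIT1 and IFI35 lie below the Vehicle libraries and ISG20 and OASL above, with no overlap.

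A list of 115 further pathway genes, none of them a member, was read beside the members, and 113 were in the table. In EBF2-OE against Vector, 0 of 70 tested were called by edgeR, as over all genes (0%). At an unadjusted p-value under 0.05, 1 passed, TRIM22, an antiviral ubiquitin ligase (log2 fold change 2.20). In GSK-LSD1 against Vehicle, 3 of 72 were called higher (2.53% of all genes) and 0 lower (2.04%). They were USP18, which removes ISG15 from proteins and dampens receptor signaling (log2 fold change 0.91, adjusted p = 0.0165), the secreted glycoprotein gene LGALS3BP (0.68, adjusted p = 6.69e-05) and CALR (calreticulin), a chaperone of the peptide-loading complex (0.60, adjusted p = 8.29e-06). With no fold limit, 9 passed higher (9.86% of all genes) and 4 lower (8.87%). In Vector against Vehicle, 0 of 71 were called higher (5.79% of all genes) and 2 lower (10.2%), LGALS3BP (log2 fold change -1.33, adjusted p = 0.00693) and the proteasome activator subunit PSME1 (-0.60, adjusted p = 0.0134). With no fold limit, 9 passed higher (13.6% of all genes) and 2 lower (13.2%).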

How the data were processed

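Poly(A) RNA-seq of 8 SW1990 libraries was analysed. The authors aligned reads to hg38 with HISAT2 and counted them per gene with HTSeq (versions and strand setting not given in the sources used here). The deposited table holds raw counts, TPM and gene lengths. The deposited TPM was checked to be the count over the length, rescaled. The test was edgeR's quasi-likelihood test on the counts (edgeR 4.0.16, R 4.3.3, TMM, filterByExpr with a minimum count of 10), two-sided, Benjamini-Hochberg over all genes tested. A call needed a fold change above 1.5 and an adjusted p-value under 0.05. Standard errors of the fold changes come from the test statistic. CPM uses the TMM factors of the 4 libraries compared. DESeq2 1.42.0 and the other alternatives are described at the end. The fits were tested on simulated data. Libraries of a group were compared over genes as a check for copies: the chi-square per degree of freedom was 5.34 to 32.9, so all were kept. The intervals of the fold changes were built from these standard errors, so they include the spread between libraries. The floor for a count of 0 (3 counts) covers counting error only.

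The members and lists were chosen with earlier results of these data known. Named are all called members, up to 5 members per comparison with the largest fold change and groups apart, the highest of each role and called genes of the pathway list. Members named for an adjusted p-value with no fold limit, TRIM22 and members of gene clusters were chosen after their values were seen. Some genes of the marker and pathway lists, and sums over them, are not reported here. Figures were drawn with matplotlib 3.10.9.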

Additional observations from a re-analysis of the deposited data

Results flagged for a closer look

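TAP1, the transporter subunit that moves peptides into the endoplasmic reticulum, was flagged for lying apart in opposite directions. Every GSK-LSD1 library lay above both Vehicle libraries, and every EBF2-OE library lay below both Vector libraries. Of all genes, 30% lay above both controls with GSK-LSD1 and 10.8% lay below both controls with EBF2-OE. How often other genes lie apart in opposite directions was not tested. The difference between the 2 log2 fold changes of TAP1 was 0.45 (95% interval 0.15 to 0.75). It was tested over all 8 libraries by edgeR and did not pass, with an adjusted p-value of 0.439. Over 15 alternatives the difference ran from 0.38 to 0.52, with adjusted p-values from 0.232 to 1.00. No group had enough libraries for a test of single outlying libraries.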

How the results depend on the processing

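In EBF2-OE against Vector, unadjusted p-values gave 3 members in place of 0. In GSK-LSD1 against Vehicle, dropping the fold limit gave 11 in place of 0. That count, added after seeing the data, was 0 in 1 fit over all 8 libraries and ran from 6 to 11 without single libraries, where 6 to 10 of the original 11 passed. In Vector against Vehicle, dropping the fold limit gave 14 in place of 7. Without single libraries the number of members called ran from 0 to 13 and the number past the adjusted p-value from 0 to 24, other members included, while 0 to 14 of the original 14 passed. For the difference of effects, unadjusted p-values gave 3 in place of 0. The cause was not tested, beyond the fewer libraries or wider shared spread in these fits. With the replicate number as a block, 0 members were called in EBF2-OE against Vector, in GSK-LSD1 against Vehicle and in their difference, and the block changed no call of a member. Over all genes, calls in EBF2-OE against Vector went from 0 to 4 higher and 1 lower with the block, 6 and 1 with DESeq2, and 64 and 10 with no low-count filter, and for the difference of effects to 20 and 14, 56 and 38, and 171 and 198. Deviations of same-numbered libraries correlated at 0.35 and -0.05 over genes in these comparisons, with 2 pairs each, and the labels do not say what the numbers mean, so they were treated as numbers only. No paired analysis was possible because Vector and Vehicle share only number 2, for that comparison. Of the directions of members not called, 30 reversed under at least 1 alternative. When single libraries were left out of EBF2-OE against Vector, log2 fold changes ran from -0.15 to 0.18 for IFI35, -0.027 to 0.10 for IFITM3, -0.41 to 0.45 for HLA-B, -0.097 to 0.15 for B2M, -0.67 to 0.15 for ISG20, -0.24 to 0.097 for NLRC5, -0.031 to 0.069 for STAT2, -0.070 to 0.070 for TAP2, -0.90 to 0.32 for IFI44, -0.29 to 0.034 for IFITM2, -0.22 to 0.26 for OAS1, -0.093 to 0.90 for ISG15, -0.29 to 0.33 for HLA-C, -0.20 to 0.055 for OAS3 and -0.20 to 0.53 for IFI6. In GSK-LSD1 against Vehicle they ran from -0.20 to 0.92 for OASL, -0.042 to 0.026 for IFIT3 and -0.097 to 0.028 for IFITM1. In Vector against Vehicle they ran from -0.066 to 0.071 for IFITM3, which was 0.00014 with DESeq2 and 0.0039 in 1 fit over all 8 libraries, -0.093 to 0.026 for HLA-C, -0.43 to 0.22 for ISG15, -0.037 to 0.22 for B2M, -0.14 to 0.19 for NLRC5, -0.045 to 0.65 for IFIT3 and -1.57 to 0.15 for OAS2. For the difference of effects they ran from -0.13 to 1.6 for OAS2, -0.51 to 0.47 for ISG15, -0.012 to 0.13 for TAP2, -0.032 to 0.57 for HLA-C and -0.36 to 0.13 for OAS1. The other directions held in all alternatives run for the 25 members described one by one. Low counts kept 7 members out of the filtered fits, and DESeq2 and the fit with no low-count filter included all 46.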
